A study of Arabidopsis thaliana with 24 samples.

Results

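Transcripts of the anthocyanin pathway and its regulators were followed in shoots and leaves of Arabidopsis thaliana. The set held 10 genes, taken by their locus identifiers from a table of 33044 genes, and all 10 were found. They comprised 3 regulators (MYB75, MYB90 and TT8), 4 early enzymes (CHS, CHI, F3H and F3'H) and 3 late enzymes (DFR, LDOX and UF3GT). The study compared the wild-type accession Col-0 with dpe2/phs1, a double mutant that lacks the cytosolic transglucosidase DPE2 and the plastidial phosphorylase PHS1 of starch and maltose metabolism. RNA-seq was done in 8 groups of 3 libraries, 24 in all, after 9 h of light in a light/dark cycle. Whole shoots were taken at 3 weeks after germination, in the Prior Period (wP for Col-0, dP for the mutant), and at 7 weeks, in the Recovery Period (wR and dR). At 5 weeks, in the period when the mutant carries fewer starch granules, young leaves (wY and dY) and mature leaves (wM and dM) with their petioles were taken separately.

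Anthocyanins are flavonoid pigments of the vacuole, and in rosette leaves they are known to build up under high sugar, strong light, cold and nitrogen or phosphate shortage. Chalcone synthase (CHS), chalcone isomerase (CHI), flavanone hydroxylase (F3H) and flavonoid B-ring hydroxylase (F3'H) form the early part of the route, which is shared with flavonols. Dihydroflavonol reductase (DFR) and leucoanthocyanidin dioxygenase (LDOX) turn it towards anthocyanidins, which glycosyltransferases such as UF3GT then decorate. A complex of an R2R3-MYB factor (MYB75, also called PAP1, or MYB90, also called PAP2), a bHLH factor such as TT8 and the WD40 protein TTG1 is known to switch on the late genes and TT8 itself.

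The deposited coordinates were those of the TAIR10 build. MYB75 (AT1G56650) lay on chromosome 1 at 21233555-21235292 on the minus strand, MYB90 (AT1G66390) on chromosome 1 at 24763941-24765541 on the plus strand, and TT8 (AT4G09820) on chromosome 4 at 6181881-6186523 on the plus strand. Among the early genes, CHS (AT5G13930) was at 4488476-4490264 on chromosome 5, plus strand, CHI (AT3G55120) at 20430059-20431597 on chromosome 3, minus strand, and F3'H (AT5G07990) at 2560328-2563137 on chromosome 5, plus strand. F3H (AT3G51240) covered 19025192-19026872 on the plus strand of chromosome 3. The late genes were DFR (AT5G42800) at 17164093-17166032 on chromosome 5, LDOX (AT4G22880) at 12004726-12006209 on chromosome 4 and UF3GT (AT5G54060) at 21936746-21938396 on chromosome 5, all on the minus strand. The deposited table names UF3GT as A3G2XYLT, a xylosyltransferase that acts on anthocyanin glucosides.

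Read numbers were estimated from the steps of the FPKM values (fragments scaled by gene length and by library size), with gene lengths refitted so that the values gave whole reads, and came to 17504383 to 27859805 reads a library, so that 3 reads on a gene of 1 kb were worth 0.108 to 0.171 FPKM. The labelled tissue was borne out by the 3 leaf markers, whose summed level was 16224 to 45810 FPKM, while 5 floral and 2 root hair markers summed to at most 1.57 and 0.0481 FPKM in any library. The 5 seed coat markers, among them BAN and TT2 of the proanthocyanidin branch that shares these enzymes, summed to 0.258 to 2.30 FPKM, and BAN and TT2 were at 0 in 17 and 20 libraries. Another of them, AHA10, was at 0 in no library and made up most of the highest sum, at up to 2.22 FPKM. AHA10 was lower in dM than in wM (-0.45 ± 0.16 on the log2 scale, limma, adjusted p = 0.016) and not called in the other genotype comparisons. DPE2 and PHS1 transcripts were lower in the mutant in P, Y and M (PHS1 -2.68 ± 0.20, -2.69 ± 0.20 and -3.45 ± 0.20 on the log2 scale; limma, adjusted p 9.4e-10, 1.6e-10 and 1.0e-12). In R they did not separate the genotypes: PHS1 was at 36.2, 26.7 and 15.2 FPKM in the libraries labelled wR and at 20.3, 23.1 and 24.6 FPKM in dR (adjusted p = 0.645), and DPE2 gave an adjusted p of 0.117. The libraries labelled wR also stood apart in gene length: relative to the mean of all libraries, the longest 10% of genes differed from the shortest 10% by a median of -2.01 to -0.90 on the log2 scale, against -0.63 to 0.97 in the other groups. Every comparison with wR therefore rests on its label.

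Of the 10 genes, 9 passed the filter of a mean of 1 FPKM in at least 1 group, and F3H did not. F3H was listed at 0 in 18 of the 24 libraries and reached at most 7 reads, or 0.252 FPKM, in 1 dP library, so no comparison was made. Its span is shared with AT3G51238, an annotated long non-coding RNA on the opposite strand at 19025110-19026779, which covers 1588 bases or 94.5% of it and was itself at 0 in 23 libraries. Among all protein-coding genes with at least 90% of their span covered by a gene on the other strand, 611 of 647 (94.4%) were under 1 FPKM in every group, compared with 7219 of 20967 (34.4%) of those without such an overlap. The sources do not state how reads on overlapping genes were counted, and the level of F3H transcript cannot be read from these values. CHI, which acts before it in the route, and DFR, which acts after it, were well above the filter.

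In all 4 comparisons of the genotypes, each of the 9 tested genes was higher in dpe2/phs1 (limma on log2(FPKM + 1), adjusted p under 0.05 over the 19575 genes tested). Higher calls made up 24.3% of all tested genes in P, 34.6% in Y, 36.6% in M and 31.6% in R, and lower calls 14.9%, 19.1%, 32.5% and 25.2%. The median difference over the 9 genes was 1.89 on the log2 scale in P, 2.88 in Y, 3.84 in M and 1.56 in R, beside medians of 0.06, 0.15, 0.05 and 0.05 over all tested genes. For all 9 genes and at all 4 stages, the lowest mutant library lay above the highest Col-0 library, which was so for 32.7%, 39.2%, 40.3% and 31.2% of all tested genes. The smallest of the 36 differences was CHI in R (0.78 ± 0.11, SE), and the largest were DFR (6.31 ± 0.14) and UF3GT (6.29 ± 0.11) in M. The order of these 2 depended on the added 1 FPKM: with 0.1 FPKM added, DFR gave 6.64 and UF3GT 7.00. Since the labelled replicates are all the replication there is, p-values measure the spread between these samples. In tissue extracts, more RNA per cell and more cells of a pigmented type cannot be told apart.

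**Figure D1:**
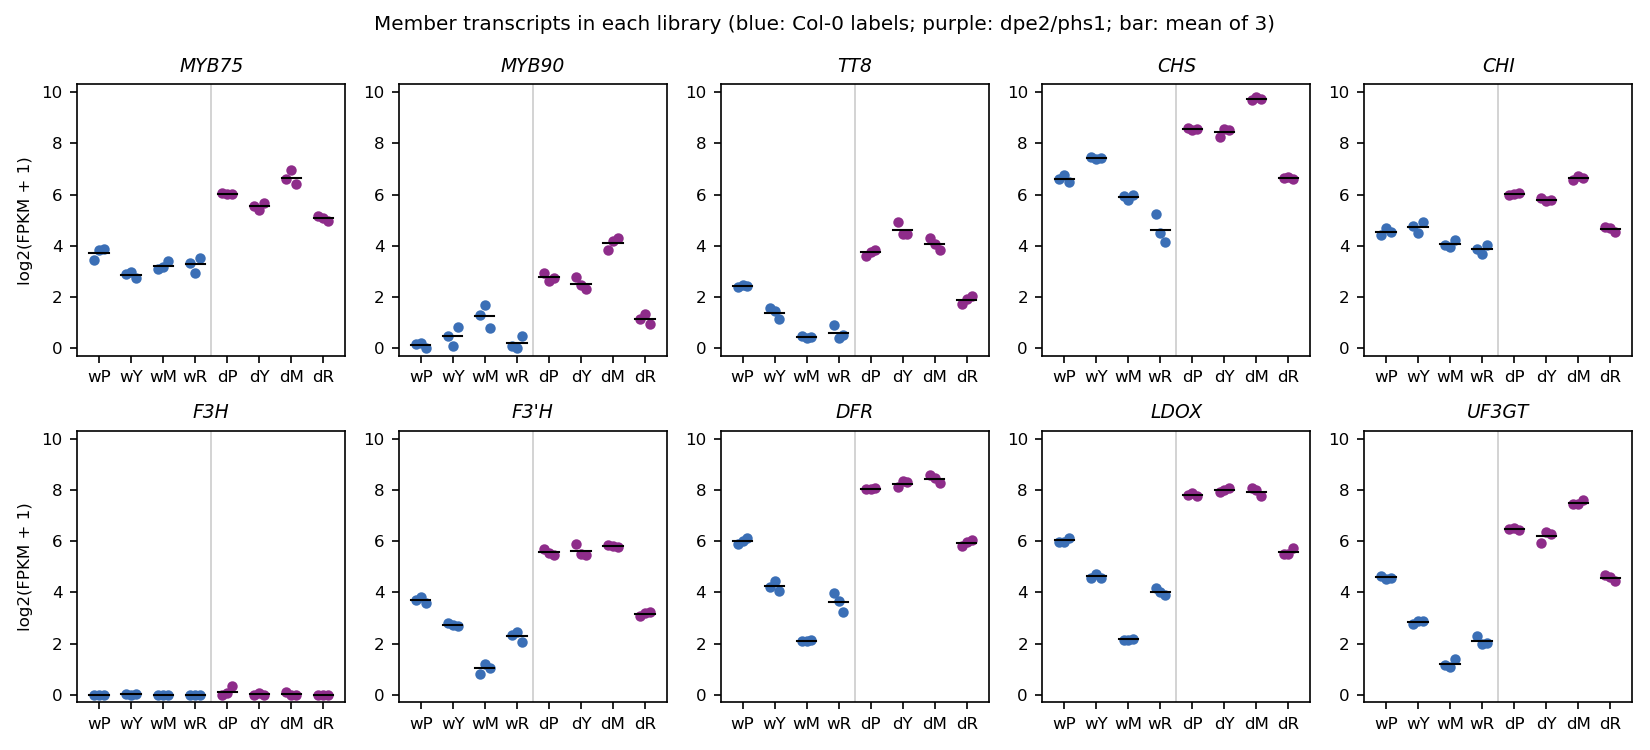
Level of each of the 10 transcripts as log2(FPKM + 1) (vertical axis) in each library of the 8 groups (horizontal axis), 1 point a library, blue for Col-0 labels and purple for dpe2/phs1, with a bar at the mean of 3. For every gene but F3H, the 3 mutant points at each stage lie above the 3 Col-0 points of that stage.

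The regulators were low in Col-0 and rose in the mutant. MYB75, the MYB factor best known for sugar-induced pigmentation, was at 7.44, 8.06 and 9.73 FPKM in the 3 wM libraries and at 96.4, 122 and 85.3 FPKM in dM. It was at 9.88, 13.2 and 13.5 FPKM in wP and 66.1, 63.5 and 63.9 FPKM in dP, and at 6.54, 6.78 and 5.62 FPKM in wY and 46.3, 41.2 and 49.9 FPKM in dY. The mutant libraries thus stood apart by a ratio of means of 5.29 in P, 7.26 in Y and 12.03 in M. In R the ratio was 3.73, from 9.03, 6.70 and 10.6 FPKM in the libraries labelled wR to 35.3, 33.0 and 30.2 FPKM in dR. The differences on the log2(FPKM + 1) scale ran from 1.81 ± 0.15 in R to 3.43 ± 0.15 in M (adjusted p 4.0e-09 and 6.3e-15).

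MYB90, a close paralog of MYB75, was at the limit of detection in several Col-0 groups. It had 0 to 3 reads in the wP libraries (0.112, 0.163 and 0 FPKM) and 99 to 130 reads in dP (6.68, 5.14 and 5.65 FPKM). In mature leaves it was at 1.43, 2.24 and 0.712 FPKM in wM and 13.2, 17.0 and 19.0 FPKM in dM, the highest of all groups. Young leaves held 0.390, 0.0568 and 0.767 FPKM in wY and 5.96, 4.53 and 3.96 FPKM in dY. The genotypes differed by 2.64 ± 0.21 in P, 2.07 ± 0.21 in Y, 2.86 ± 0.21 in M and 0.96 ± 0.21 in R, values that depend on the added 1 FPKM since the Col-0 levels lie near it. With 0.1 FPKM added in its place, the same 4 differences were 5.05, 3.58, 3.51 and 2.73. Reads that fit both paralogs may be split or dropped, so the ratio of MYB90 to MYB75 is uncertain.

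TT8, the bHLH partner, followed another order of stages than the MYB factors. Its highest group was dY, with 29.7, 21.0 and 20.8 FPKM, followed by dM with 18.7, 15.9 and 13.3 FPKM and dP with 11.3, 12.7 and 13.3 FPKM. In Col-0 it was highest in wP, at 4.26, 4.61 and 4.32 FPKM, lower in wY, at 1.99, 1.70 and 1.19 FPKM, and lowest in wM, at 0.376, 0.313 and 0.356 FPKM. The ratio of means was thus 45.9 in mature leaves, 14.6 in young leaves and 2.82 in P, with differences of 3.64 ± 0.16, 3.23 ± 0.16 and 1.31 ± 0.16 (adjusted p 7.1e-15, 1.1e-13 and 1.1e-06). In R the 3 mutant libraries held 2.30, 2.75 and 3.17 FPKM and those labelled wR 0.870, 0.317 and 0.430 FPKM.

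Among the early enzymes, CHS, which makes the first flavonoid from malonyl-CoA and coumaroyl-CoA, was the most abundant transcript of the set. Mature leaves held 59.9, 54.9 and 61.8 FPKM in wM and 825, 900.4 and 847 FPKM in dM, a ratio of means of 14.6 (difference 3.84 ± 0.16, adjusted p = 3.6e-15). In young leaves the same gene was at 176, 166 and 173 FPKM in wY and 302, 375 and 370.1 FPKM in dY, and the ratio was only 2.03 (1.01 ± 0.16, adjusted p = 1.6e-05). Young leaves of Col-0 therefore had the highest CHS level of the Col-0 groups, while the late genes of Col-0 were highest in wP.

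CHI, which closes the ring of the chalcone, showed the smallest differences in P, M and R of the 6 tested enzymes. It was at 15.3, 14.6 and 17.6 FPKM in wM and 94.1, 106 and 99.6 FPKM in dM (2.59 ± 0.11), and at 26.4, 21.7 and 29.3 FPKM in wY and 57.1, 53.3 and 54.4 FPKM in dY (1.07 ± 0.11). F3'H, which adds the hydroxyl group that separates the cyanidin from the pelargonidin type, moved more widely. Its level was 0.763, 1.33 and 1.06 FPKM in wM and 56.3, 54.8 and 52.9 FPKM in dM, a ratio of means of 52.0 (difference 4.77 ± 0.12, adjusted p = 1.0e-18). In young leaves the ratio was 8.53, in P 3.87 and in R 2.04.

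The late enzymes gave the largest differences of the set in mature leaves. DFR, the first enzyme that commits the route to anthocyanins, was at 3.24, 3.34 and 3.40 FPKM in wM and at 377, 349 and 305 FPKM in dM, a ratio of means of 103 (difference 6.31 ± 0.14, adjusted p = 5.1e-20). LDOX, which follows it, was at 3.45, 3.45 and 3.56 FPKM in wM and 268, 251 and 215 FPKM in dM (ratio 70.2, difference 5.77 ± 0.10). UF3GT rose from 1.26, 1.11 and 1.62 to 174, 173 and 196 FPKM (ratio 136, difference 6.29 ± 0.11). By size of the difference, DFR, UF3GT and LDOX ranked 8, 9 and 18 from the top among the 19575 tested genes in this comparison.

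In young leaves, DFR was at 17.6, 21.0 and 15.7 FPKM in wY and 274, 326 and 313 FPKM in dY, a ratio of 16.8. The ratios of LDOX and UF3GT there were 10.8 and 11.7. In P, where Col-0 shoots already held 58.4, 62.4 and 67.9 FPKM of DFR and 61.1, 62.1 and 69.3 FPKM of LDOX, the ratios of DFR, LDOX and UF3GT were 4.20, 3.497 and 3.82. In R they were 5.25, 3.08 and 6.98, with DFR at 14.7, 11.7 and 8.27 FPKM in the libraries labelled wR and 55.8, 61.3 and 65.0 FPKM in dR. Levels of DFR and LDOX in dP, dY and dM were all between 215 and 377 FPKM, so the larger ratios in leaves came with lower levels in wY and wM.

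**Figure D2:**
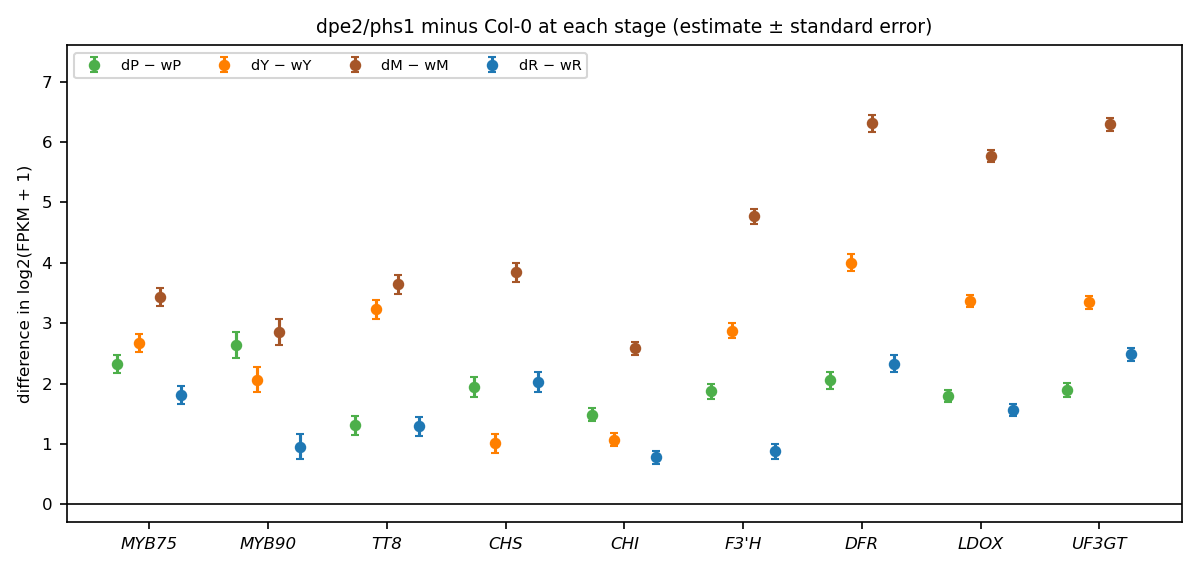
Difference between dpe2/phs1 and Col-0 in log2(FPKM + 1) (vertical axis, estimate ± standard error, 3 libraries a group) for the 9 tested genes (horizontal axis) at each of 4 stages (colours). All 36 points lie above 0, and DFR and UF3GT in mature leaves reach 6.31 and 6.29.

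The 250 bases before the annotated starts of the late genes, and of CHS as the early gene with the highest level, were read from the TAIR10.1 genome of RefSeq, whose coordinates matched those of the deposited table for all 10 genes. They are shown because these transcripts had the largest differences or the highest level of the set, and because MYB and bHLH factors are known to bind such regions. Capitals mark the G-box CACGTG and the AC element ACCNACC, searched on both strands, and each run is written 5′ to 3′ on the strand of its gene.
DFR, chr5:17166033-17166282, minus strand: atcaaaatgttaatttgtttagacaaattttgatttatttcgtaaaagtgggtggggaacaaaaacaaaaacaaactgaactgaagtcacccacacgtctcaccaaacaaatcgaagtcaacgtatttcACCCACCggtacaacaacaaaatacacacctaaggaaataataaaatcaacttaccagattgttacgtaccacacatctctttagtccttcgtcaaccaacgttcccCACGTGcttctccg
LDOX, chr4:12006210-12006459, minus strand: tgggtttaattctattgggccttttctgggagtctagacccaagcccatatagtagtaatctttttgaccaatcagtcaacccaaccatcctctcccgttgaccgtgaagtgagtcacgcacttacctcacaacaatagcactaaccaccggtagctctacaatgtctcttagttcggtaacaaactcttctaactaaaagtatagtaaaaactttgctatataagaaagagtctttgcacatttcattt
UF3GT, chr5:21938397-21938646, minus strand: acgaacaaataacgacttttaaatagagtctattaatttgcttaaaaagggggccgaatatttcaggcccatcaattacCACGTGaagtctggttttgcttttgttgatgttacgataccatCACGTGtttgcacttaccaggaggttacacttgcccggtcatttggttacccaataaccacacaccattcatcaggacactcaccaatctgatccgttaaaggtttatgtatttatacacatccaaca
CHS, chr5:4488226-4488475, plus strand: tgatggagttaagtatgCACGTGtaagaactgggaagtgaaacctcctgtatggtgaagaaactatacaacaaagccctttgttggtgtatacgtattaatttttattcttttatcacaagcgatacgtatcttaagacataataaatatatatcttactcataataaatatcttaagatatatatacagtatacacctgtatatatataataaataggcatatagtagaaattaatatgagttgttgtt

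Counted back from the base before the start, the DFR window held a G-box at -14 and an AC element (ACCCACC) at -121. UF3GT had 2 G-boxes, at -171 and -128, and CHS had 1 at -233. The LDOX window held neither motif, nor any E-box (CANNTG, which includes the G-box). Over the 10 genes, a G-box was present in 5 (also in MYB90 and F3H), an E-box in 8, ACCNACC in 2 (also in TT8, as ACCAACC at -114) and the other AC element searched, ACCTAAC, in 0. Windows of the same length before all 27419 nuclear protein-coding genes held them in 6.48%, 55.3%, 6.10% and 2.47% of cases. A match of letters is a description of the sequence and shows no binding.

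The pathway changed with leaf age in different ways in the 2 genotypes. In Col-0, 7 of the 9 genes were lower in mature than in young leaves, MYB90 was higher and MYB75 was not called (higher calls 18.8% and lower calls 25.2% of all tested genes). LDOX differed most (-2.45 ± 0.10, adjusted p = 5.5e-15), followed by DFR (-2.13 ± 0.14), F3'H (-1.71 ± 0.12), UF3GT (-1.63 ± 0.11) and CHS (-1.53 ± 0.16). TT8 fell with them (-0.95 ± 0.16, adjusted p = 3.3e-05). The MYB factors did not: MYB90 gave 0.79 ± 0.21 (adjusted p = 0.00400) and MYB75 0.36 ± 0.15 (adjusted p = 0.0539). MYB90 rested on few reads, 9, 1 and 17 in wY and 40, 43 and 16 in wM, and its libraries of the 2 groups overlapped. The MYB75 value passed the threshold, in the same direction, under 6 other settings, with adjusted p of 0.017 to 0.044 (a pseudocount of 0.1, 3 rescalings, the 2 groups fitted alone, or the length trend removed), and without wM replicate 1 (0.043).

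In the mutant, 5 of the 9 genes were higher in mature than in young leaves, TT8 was lower and 3 were not called (higher calls 26.5%, lower calls 41.2%). Those higher were MYB90 (1.58 ± 0.21), UF3GT (1.32 ± 0.11), CHS (1.302 ± 0.16), MYB75 (1.12 ± 0.15) and CHI (0.85 ± 0.11). F3'H (0.19 ± 0.12), DFR (0.17 ± 0.14) and LDOX (-0.06 ± 0.10) did not pass the test. The direction of small differences here depended on the scaling, since the median of all genes was -0.16 as deposited and 0.05 after median-of-ratios rescaling. After that rescaling TT8 lost its call (-0.29, adjusted p = 0.085), while F3'H (0.45), DFR (0.44) and LDOX (0.21) were called higher. F3'H was also called higher (0.32, adjusted p = 0.027) without dY replicate 1.

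**Figure D3:**
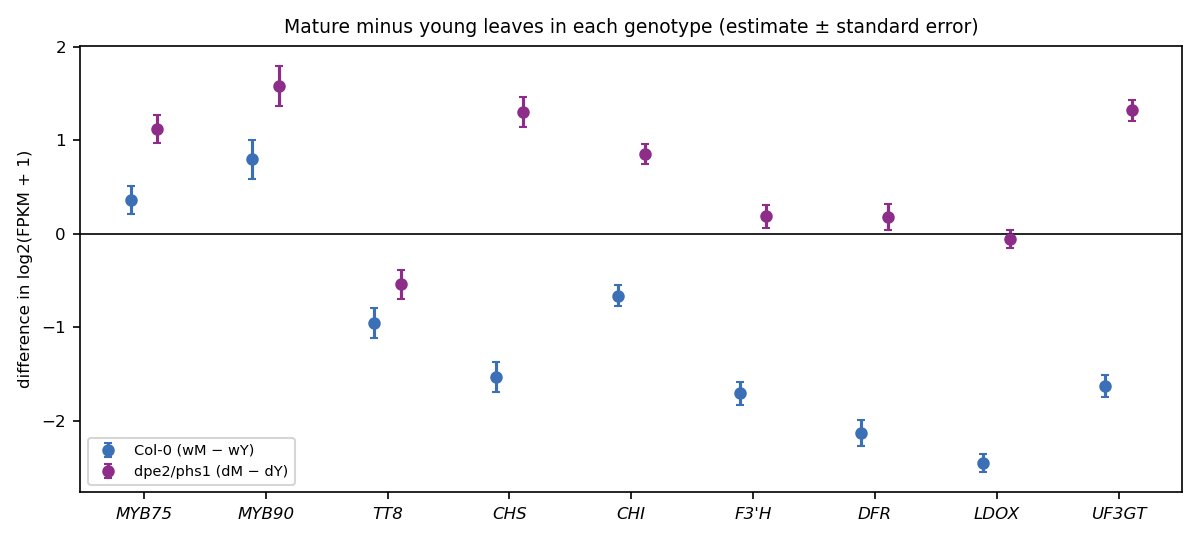
Difference between mature and young leaves in log2(FPKM + 1) (vertical axis, estimate ± standard error, 3 libraries a group) for the 9 tested genes (horizontal axis), blue for Col-0 and purple for dpe2/phs1. In Col-0, 7 genes lie below 0 and were called, down to -2.45 for LDOX, while in the mutant TT8 (-0.54) is the only gene below 0 called on the deposited scale, a call lost after median-of-ratios rescaling.

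The genotype difference itself was larger in mature than in young leaves for 8 of the 9 genes (interaction term of the same model, higher calls 20.8% of all tested genes). The term was largest for UF3GT (2.95 ± 0.16, adjusted p = 5.5e-12) and CHS (2.83 ± 0.23), then LDOX (2.39 ± 0.14), DFR (2.31 ± 0.19), F3'H (1.89 ± 0.18) and CHI (1.51 ± 0.15). It was 0.76 ± 0.21 for MYB75 (adjusted p = 0.00527) and 0.79 ± 0.30 for MYB90 (adjusted p = 0.0347). TT8 did not pass (0.41 ± 0.22, adjusted p = 0.136), but did with a pseudocount of 0.1 (1.36), on recovered reads (1.58) and after median-of-ratios rescaling (0.60), and also without dY replicate 1 (0.57, adjusted p = 0.035). The MYB90 term was below 0 with a pseudocount of 0.1 (-0.07) and on recovered reads (-0.28), and lost its call under 4 further settings (0.58 to 0.79) and without any 1 of wY 1 and 3, wM 1 and 3, dY 2 and 3, and dM 2 and 3 (0.55 to 0.80).

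Markers of senescence moved with the mature leaves of the mutant. The summed level of SAG12 and SAG13 was 262 to 292 FPKM in dM and 8.19 to 9.04 FPKM in wM, with 17.6 to 22.5 FPKM in dY and 2.83 to 3.13 FPKM in wY. In shoots it was 16.1 to 19.7 FPKM in dP, 0.552 to 0.714 FPKM in wP, 35.8 to 42.0 FPKM in dR and 24.8 to 27.1 FPKM in wR. Outside dM, nearly all of this sum was SAG13. SAG12 alone was at 40.4 to 45.8 FPKM in dM and at 0 in every wP, wY and wM library. It was at 0.118 to 0.279 FPKM in dP, 0.184 to 0.426 FPKM in dY, 1.95 to 1.98 FPKM in wR and 2.79 to 3.47 FPKM in dR. The summed leaf markers were 16224 to 18142 FPKM in dM and 29049 to 30549 FPKM in wM. Their part in the differences of the pathway genes was not tested.

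Between the 2 shoot stages, most genes of the set were lower at 7 than at 3 weeks. All 9 genes were lower in dR than in dP (lower calls 22.1% of all tested genes), from -0.96 ± 0.15 for MYB75 to -2.41 ± 0.12 for F3'H, and DFR fell from 264 ± 1.41 to 60.7 ± 4.65 FPKM (SD, n = 3). In the libraries labelled Col-0, 8 were lower in wR than in wP (lower calls 38.6%), with the lowest value, -2.49 ± 0.11, for UF3GT. MYB90 was not called (0.06 ± 0.21), but with the length trend removed it was called lower (-0.56, adjusted p = 0.016). The call of MYB75 (-0.44 ± 0.15, adjusted p = 0.0114) was lost after quantile normalization (-0.30), with the 2 groups fitted alone (adjusted p = 0.093), and without wP replicate 3 (-0.36, adjusted p = 0.058) or wR replicate 2 (-0.28, adjusted p = 0.11).

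The genotype difference in R was not uniformly smaller or larger than in P. By the interaction term, it was smaller for MYB90 (-1.68 ± 0.30), F3'H (-0.99 ± 0.18), CHI (-0.70 ± 0.15) and MYB75 (-0.52 ± 0.21), and larger for UF3GT (0.59 ± 0.16), with 4 genes not called (higher calls 25.3%, lower calls 26.6% of all tested genes). The MYB75 call (adjusted p = 0.0440) was kept with a stricter filter and after quantile normalization and lost under the other 8 settings, among them removal of the length trend (-0.01). It was also lost without any 1 of wP 1, wR 1 and 3, dP 1 to 3, and dR 2 and 3 (-0.53 to -0.38). The CHI call was lost when the length trend was removed (-0.20, adjusted p = 0.21), and the MYB90 call on recovered reads (-2.29, adjusted p = 0.14). Without wR replicate 1, CHS (0.38, adjusted p = 0.029) and DFR (0.45, adjusted p = 0.031) were called larger in R. DFR was called after quantile normalization as well (0.42, adjusted p = 0.049).

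Ordered by level over the 8 groups, the 9 genes did not share 1 order, and neighbouring groups often overlapped. DFR ran from dM and dY, which overlapped, to dP, then wP and dR, which overlapped, then wY, wR and wM. F3'H and TT8 ended in the same sequence from wP to dR, wY, wR and wM. LDOX had dY, dM and dP at the top with overlapping libraries, and UF3GT had dM above dP and dY without overlap. MYB75 had the 4 mutant groups first, in the order dM, dP, dY and dR without overlap, and then wP, wR, wM and wY, of which the first 3 overlapped in turn. For CHS and CHI, wY stood above dR and wP, though for CHI these 3 groups overlapped.

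Ratios between transcripts within a library are given per length and as descriptions, with no test. The DFR level was 0.0566 ± 0.00363 times the CHS level in wM (mean and SD of the per-library ratio, n = 3), 0.106 ± 0.0183 in wY and 0.651 ± 0.0971 in wP. In the mutant it was 0.402 ± 0.0497 in dM, 0.874 ± 0.0313 in dY and 0.701 ± 0.0147 in dP. In leaves the mutant ratios did not overlap those of Col-0, and in P they did. Group means of the LDOX to DFR ratio lay between 0.711 in dM and 1.37 in wR. Against FLS1, flavonol synthase, which competes with DFR for dihydroflavonols, DFR was at 0.325 ± 0.0361 in wM and 44.8 ± 6.02 in dM, and at 0.399 ± 0.0619 in wY and 15.1 ± 1.48 in dY.

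A further 38 genes of the pathway were listed by role, and 36 passed the filter (UGT78D3 and MYB12 did not). Of these, 19 were called higher and 6 lower in P, 17 and 6 in Y, 24 and 4 in M, and 21 and 4 in R. Over all tested genes, higher calls were 24.3%, 34.6%, 36.6% and 31.6% and lower calls 14.9%, 19.1%, 32.5% and 25.2% at these stages, and counts by role near those shares are no result about the role. Genes of anthocyanin decoration and transport were called as follows: all 9 were higher in P, M and R, and 8 in Y, where UGT84A2 (0.22 ± 0.11, named after its value was seen) was not called unless the length trend was removed. GSTF12 (TT19), a glutathione transferase needed to bring anthocyanins to the vacuole, was at 3.57, 5.06 and 5.49 FPKM in wM and 598, 671 and 576 FPKM in dM (6.77 ± 0.14). 5MAT, a malonyltransferase, was at 0.433, 0.721 and 0.564 and 133, 134 and 117 FPKM (6.36 ± 0.10), and UGT75C1, a glucosyltransferase, at 3.77, 4.41 and 4.005 and 228, 238 and 233 FPKM (5.53 ± 0.11).

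Of the 4 tested genes of the flavonol and early branch, 2 were higher and 2 lower in both Y and M, and 3 were higher in both P and R. Over all tested genes, higher calls were 24.3% in P, 34.6% in Y, 36.6% in M and 31.6% in R. Lower calls were 14.9%, 19.1%, 32.5% and 25.2%, and counts near these shares are no result about the branch. FLS1 was at 44.2, 45.5 and 46.6 FPKM in wY and 17.5, 20.04 and 23.2 FPKM in dY (-1.14 ± 0.13, adjusted p = 2.9e-07), and was also lower in dM (-0.38 ± 0.13, adjusted p = 0.0171), but higher in dP (0.53 ± 0.13) and dR (0.84 ± 0.13). UGT78D1, a flavonol rhamnosyltransferase named here after its values were seen, was lower in dY (-0.85 ± 0.09) and dM (-1.12 ± 0.09). CHIL, a chalcone isomerase-like protein of the early route, was higher at all 4 stages, with 2.05 ± 0.11 in M, and OMT1, a methyltransferase that acts on flavonols, was higher at all 4 as well (2.00 ± 0.16 in M), a call lost in P after quantile and TPM rescaling and in Y after median-of-ratios rescaling. Of the 8 general phenylpropanoid genes, 3 were higher and 4 lower in P, 1 and 3 in Y, 4 and 1 in M, and 5 and 0 in R, beside higher calls of 24.3%, 34.6%, 36.6% and 31.6% and lower calls of 14.9%, 19.1%, 32.5% and 25.2% of all tested genes. The 1 higher gene in Y, 4CL2, lost its call after median-of-ratios, quantile and TPM rescaling, and with the length trend removed 6 were higher in M. PAL1, the entry enzyme, was at 15.7, 13.9 and 15.5 FPKM in wM and 79.8, 74.2 and 78.1 FPKM in dM (2.29 ± 0.18), PAL2 gave 1.40 ± 0.19 in R, and 4CL2, a coumarate ligase, 1.93 ± 0.18 in M. The 3 lower in Y were PAL4 (-1.38 ± 0.14), 4CL3 (-1.24 ± 0.11) and C4H (-1.15 ± 0.11).

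Among the 8 tested activators, 1 was higher and 2 were lower in P, 3 and 1 in Y, 5 and 1 in M, and 2 and 2 in R. Over all tested genes, higher calls were 24.3%, 34.6%, 36.6% and 31.6% and lower calls 14.9%, 19.1%, 32.5% and 25.2%. The 1 higher in P, MYB11, lost its call after each of the 3 rescalings and with the length trend removed, and in Y the 3 higher became 1 after quantile normalization. MYB113, another paralog of MYB75, went the other way in R: it was at 4.75, 4.40 and 5.43 FPKM in the libraries labelled wR and 0.272, 0.936 and 0.386 FPKM in dR (-1.96 ± 0.18, adjusted p = 2.3e-08), while in M it was higher in the mutant (1.09 ± 0.18). MYB111 and MYB11 activate flavonol genes. MYB111 was higher in R (1.23 ± 0.12) but lower in Y (-0.42 ± 0.12) and in M (-0.50 ± 0.12). MYB11 gave 1.19 ± 0.12 in Y, from a mean of 0.0803 FPKM in wY to 1.47 FPKM in dY. It passed the filter of 1 FPKM only through dY, so its difference in Y rests on the group that admitted it. MYB114, called lower in R, passed only through the libraries labelled wR (mean 1.31 FPKM). The WD40 partner TTG1, named after its values were seen, gave -0.50 ± 0.10 in P (adjusted p = 2.8e-04) and 0.62 ± 0.10 in M (adjusted p = 6.6e-06), and its call in Y (0.27 ± 0.10) was lost after each of the 3 rescalings. Of the 7 repressors, 3 were higher in P, 3 in Y, 4 in M and 2 in R, where 2 were lower, beside the same shares of all tested genes. In M, MYB4 was called lower after each of the 3 rescalings and with the length trend removed, and CPC lost its higher call under 3 of these 4 settings, not under TPM. In R, 3 were lower after median-of-ratios and quantile rescaling and 1 after TPM rescaling. MYBL2, a small MYB protein that blocks the MYB and bHLH complex, rose with the late genes in leaves. It was at 1.09, 1.07 and 0.958 FPKM in wY and 43.8, 32.1 and 36.3 FPKM in dY (4.22 ± 0.14), at 1.04, 1.19 and 1.96 FPKM in wM and 55.7, 56.8 and 47.1 FPKM in dM (4.51 ± 0.14), and it did not differ by the test in R (0.00 ± 0.14). LBD39, a nitrate-linked repressor, was higher at all 4 stages, from 1.18 ± 0.15 in R to 2.20 ± 0.15 in Y, and LBD37 was higher in Y (1.02 ± 0.13) and M (0.93 ± 0.13) and lower in R (-0.56 ± 0.13).

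**Figure D4:**
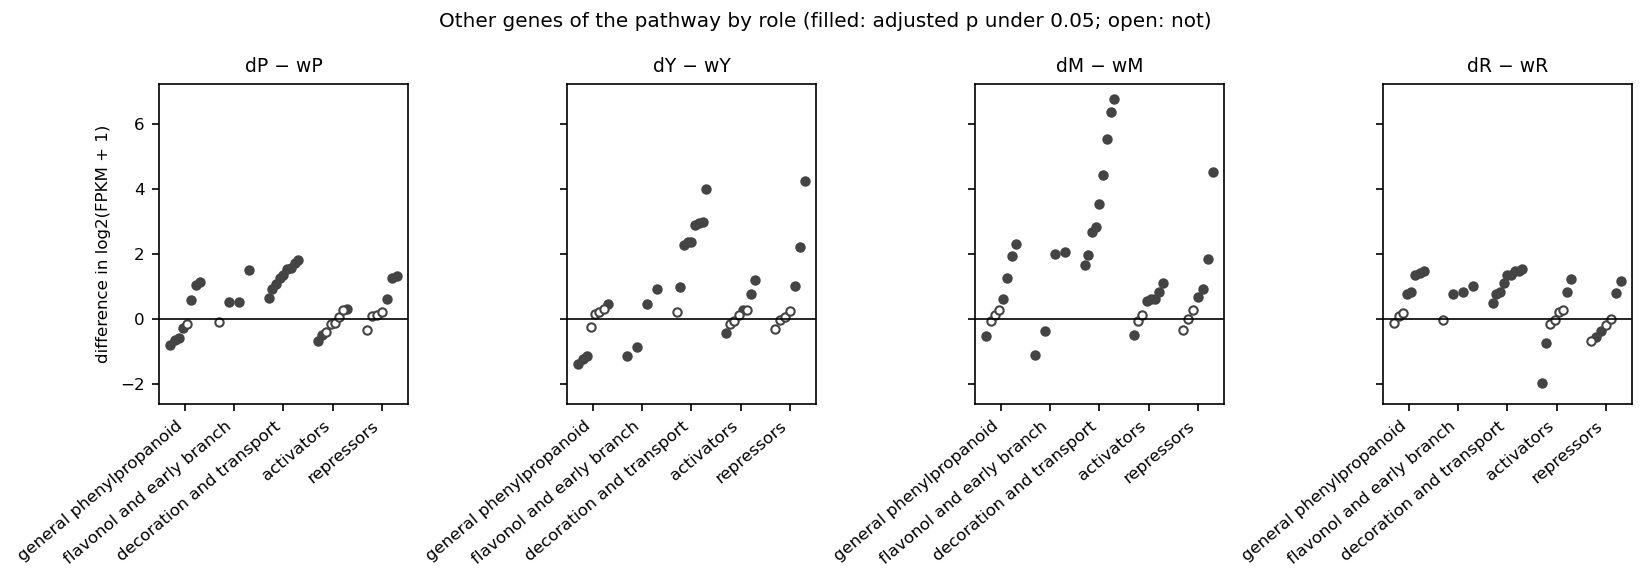
Difference between dpe2/phs1 and Col-0 in log2(FPKM + 1) (vertical axis) for the 36 tested pathway genes outside the set, by role (horizontal axis) and stage (panels), 1 point a gene, filled where the adjusted p was under 0.05. The decoration and transport genes lie above 0 in every panel and reach 6.77 for GSTF12 in M, while the other roles lie on both sides.

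Over the 24 libraries, which form 8 groups and so are not independent points, the mean of DFR, LDOX and UF3GT followed F3'H (Pearson r = 0.98 on the log2 scale) and TT8 (0.96) most closely of the other tested genes of the set. CHI (0.90), MYB75 (0.89), CHS (0.84) and MYB90 (0.73) came after. Of 15546 genes outside the set that reached 5 FPKM in a group, the 8 most alike included 5 of the decoration and transport list: 5MAT (0.99), UGT75C1 (0.98), SCPL10 (0.98), GSTF12 (0.97) and 3AT1 (0.95). The other 3 were CIL (AT4G25990, 0.95), STP5 (AT1G34580, a monosaccharide transporter by its name, 0.95) and an unannotated transcript on chromosome 2 (0.96). CIL was at 1.07 FPKM in wM and 15.1 FPKM in dM (means of 3). These correlations are descriptions, and say nothing of shared control.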

How the data were processed

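Messenger RNA of 24 libraries (8 groups, 3 labelled replicates each) was sequenced. Per the submitters' processing notes, CASAVA, HISAT2, featureCounts and the TAIR10 build were used, with versions, strand setting and the handling of overlapping genes not given in the sources used here. The deposited values are FPKM per gene, and all value columns were mapped to a sample. Since the deposited values are FPKM and not counts, the count test of the study was not used, and log2(FPKM + 1) was tested here with limma 3.58.1 (R 4.3.3) in 1 model with a mean per group over all 24 libraries, after a filter of a mean of at least 1 FPKM in at least 1 group. Fold changes are on the log2(FPKM + 1) scale, which understates the change of low genes. P-values were adjusted by Benjamini-Hochberg over all 19575 tested genes, with a threshold of 0.05. Read totals came from the steps of the FPKM values, where 56.7% of nonzero values gave whole reads with the listed gene lengths (tolerance 0.02 reads). Lengths were therefore refitted per gene, after which 99.99% were whole, a share that the refit was chosen to raise. They were used for depth and for 1 alternative only. Replicates of every group differed by more than sampling noise. Every p-value measures only the spread between samples that the labels call replicates.

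The members and gene lists were chosen with earlier results of these data known. All members were described, and from each further list at most the 3 genes with the largest differences among those called and changed at least 2-fold in a genotype comparison were named, with the 8 genes outside the set most alike to the late enzymes. UGT84A2, UGT78D1, TTG1, MYB114, MYB4, CPC and the 3 general phenylpropanoid genes lower in Y were named outside this rule, after their values were seen. Alternatives were another pseudocount, other filters and scalings, fits to the compared groups only, the replicate number as a block, limma-voom on recovered reads, removal of the length trend, and leaving out each library in turn. The code was tested on simulated data. Plots were drawn in matplotlib 3.10.9, and tables joined in pandas 2.3.3, under Python 3.11.15 (numpy 2.4.6).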

Additional observations from a re-analysis of the deposited data

Results flagged for a closer look

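The difference between dpe2/phs1 and Col-0 itself differed between 2 stages, by the interaction test of the limma model, for 13 combinations of a gene and a pair of stages. Mature against young leaves gave larger mutant effects for MYB75 (0.76), MYB90 (0.79), CHS (2.83), CHI (1.51), F3'H (1.89), DFR (2.31), LDOX (2.39) and UF3GT (2.95), all on the log2(FPKM + 1) scale. Higher calls there made up 20.8% of all tested genes. In R against P the effect was smaller for MYB75 (-0.52), MYB90 (-1.68), CHI (-0.70) and F3'H (-0.99) and larger for UF3GT (0.59). Higher calls there made up 25.3% and lower calls 26.6% of all tested genes, so these counts are no result about the set. The values of R against P rest on the libraries labelled wR, in which DPE2 and PHS1 did not separate the genotypes. The MYB75 call in R against P and the MYB90 call in leaves were lost under most of the other settings. No outlier test was run within groups, since each holds 3 libraries, and the effect of leaving out each library is given with the results.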

How the results depend on the processing

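All 36 genotype differences of the set kept their direction and call under all 576 alternative values. Of the other 6 comparisons, 905 alternative values kept both, 35 lost the call, 17 gained it and 15 changed sign. In the R against P interaction, the called genes of the set went from 5 to 3 on recovered reads (MYB75 and MYB90 lost) and to 3 with the length trend removed (MYB75 and CHI lost). Signs changed for MYB90 in the M against Y interaction with pseudocount 0.1 (-0.066) and on recovered reads (-0.28), while leaving out libraries gave 0.55 to 1.01. For TT8 in R against P the values were 0.76 with pseudocount 0.1, 0.067 with median-of-ratios, 0.25 with TPM and 0.94 on recovered reads, and -0.13 to 0.13 without single libraries. LDOX gave 0.21 in dM minus dY with median-of-ratios (-0.13 to 0.033 without single libraries) and 0.10 in R against P with the length trend removed. MYB90 in wR minus wP gave -0.56 with the length trend removed, where it was called lower (adjusted p = 0.016), and -0.089 to 0.16 without single libraries, and CHS in R against P -0.15 to 0.38. The cause was not tested. Leaving out single libraries gave 9 called genes throughout in the genotype comparisons and in dR minus dP, 6 to 7 in dM minus dY, 8 to 9 in wM minus wY, 7 to 8 in wR minus wP, 7 to 9 in the M against Y and 4 to 6 in the R against P interaction.

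Same-numbered replicates did not steadily deviate together (correlations -0.41 to 0.41), so the numbers were not used as pairs. With 3 libraries a group, this check cannot show whether same-numbered samples came from the same plants. With the replicate number as a block, 9 genes were called in each genotype comparison and 4 instead of 5 in the R against P interaction (MYB75 lost, adjusted p = 0.055). It changed no other call of the set.

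Over all tested genes, scaling moved the share of called genes that were higher (not of all genes tested) from 62.0% to 49.8% in dP minus wP, 64.5% to 49.8% in dY minus wY, 39.1% to 53.4% in dM minus dY, 38.0% to 53.9% in dR minus dP and 42.8% to 53.9% in wM minus wY with median-of-ratios, and with TPM from 55.7% to 66.0% in dR minus wR and 48.8% to 61.6% in the R against P interaction. The median of all genes moved from 0.15 to 0.01 in dY minus wY (median-of-ratios), and with TPM from 0.05 to 0.16 in dR minus wR and -0.06 to -0.25 in wR minus wP. Depth limited MYB90 in wP and in the libraries labelled wR, with 0 to 8 reads, and in wY, with 1 to 17 reads.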
